A study of Homo sapiens with 36 samples.

Results

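The genes described here are 10 members of the protein folding and stress response system of the endoplasmic reticulum (ER): HSPA5, HSP90B1, DNAJB9, XBP1, HERPUD1, SDF2L1, PDIA4, CALR, ERN1 and ERO1A. They were found by symbol as 10 of the 60591 rows of the mRNA count table, and all 10 passed the filter on low counts in both cell lines. They were followed across 6 groups, formed by 2 human colorectal cancer cell lines and 3 culture conditions.

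The ER folds proteins that are destined for membranes and for secretion. When unfolded proteins build up there, sensors in the ER membrane switch on the unfolded protein response (UPR). The sensor IRE1, which ERN1 encodes, splices XBP1 mRNA so that it gives an active transcription factor, ATF6 is cut to release another one, and PERK slows translation and favours ATF4. The factors released by IRE1 and ATF6 raise the transcription of chaperones, disulfide-forming enzymes and components of ER-associated degradation (ERAD), the route by which misfolded proteins leave the ER to be destroyed. Intestinal epithelial cells secrete large amounts of mucus, lipoprotein and other protein, and rely on this system. One of the 10 genes, ERO1A, is also known as a target of the hypoxia-inducible factor (HIF).

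The study treated differentiated Caco-2 cells and HT-29 cells with CoCl2 or with a derivative of oxyquinoline (OD), both of which stabilise HIF, to imitate hypoxia at normal oxygen. Caco-2 is an established line that, after long culture, forms a layer resembling small intestinal epithelium, and HT-29 is an established line that was not differentiated. For each line there were 3 control libraries, 3 libraries after CoCl2 at 300 µM and 3 libraries after OD at 5 µM, all at 24 h, and the Caco-2 cells had first been kept for 21 days under conditions for differentiation. Per the labels, control and OD medium held 0.5 µl of dimethyl sulfoxide (DMSO) per ml and the CoCl2 stock was made in water, with no mention of DMSO for CoCl2. The study's methods describe only Caco-2 cells and state a higher share of DMSO than the labels. In that account DMSO went into the CoCl2 medium too, which would match it to the controls. Whether CoCl2 and control differed in solvent depends on which account holds, and for HT-29 only the labels give one. Line and culture state cannot be told apart either. Each group came from 1 cell line, and the labels do not say whether replicates were separate cultures, so p-values measure the spread between these libraries only.

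Promoter windows from RefSeq (GRCh38.p14, 250 bases before to 50 after each start) were found for all 10 genes and searched for the elements through which the UPR acts. The ER stress element, CCAAT, any 9 bases and CCACG on either strand, was present in the windows of 25 of the 27305 genes that have one (0.0916%) and in those of 4 of the 10 genes, HSPA5, HSP90B1, XBP1 and CALR. The second element, ATTGG, any 1 base and CCACG, was present for 19 genes (0.0696%), among them HERPUD1 and SDF2L1. These 7 sites are shown for the 6 of the 10 genes that hold them. Elements and genes were both taken from general knowledge of the UPR. The matches were therefore likely from the outset, and these shares are a description without independent weight. Capitals mark the matched letters, written in the direction of the gene, with the position of the element on GRCh38.
HSPA5 (chr9:125241391-125241409, minus strand): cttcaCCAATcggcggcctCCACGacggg
HSP90B1 (chr12:103930216-103930234, plus strand): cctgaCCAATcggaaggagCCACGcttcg
HSP90B1 (chr12:103930321-103930339, plus strand): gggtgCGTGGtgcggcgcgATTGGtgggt
XBP1 (chr22:28800603-28800621, minus strand): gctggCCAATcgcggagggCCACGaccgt
CALR (chr19:12938384-12938402, plus strand): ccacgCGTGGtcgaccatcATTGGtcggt
HERPUD1 (chr16:56932025-56932035, plus strand): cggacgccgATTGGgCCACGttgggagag
SDF2L1 (chr22:21642114-21642124, plus strand): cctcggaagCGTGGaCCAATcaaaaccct

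The windows of DNAJB9, PDIA4, ERN1 and ERO1A held neither element in these letters, and TGACGTGG, the element bound by spliced XBP1 and ATF6, was found for 0 of the 10 and for 0.927% of all genes. Short cores of the HIF element were common everywhere. ACGTG was found for 24.9% of all genes and 6 of the 10, namely HSP90B1, DNAJB9, XBP1, HERPUD1, PDIA4 and ERO1A. GCGTG was found for 40.6% and again 6. The ACGTG sites of ERO1A and DNAJB9 are shown because these genes were called in all 4 comparisons with control, with the core in capitals, which for ERO1A is its reverse complement. ERO1A held GCGTG as well.
ERO1A (chr14:52695668-52695672, minus strand): cgggcgccgcggCACGTccacaggctggg
DNAJB9 (chr7:108569802-108569806, plus strand): caacagttttccACGTGcgcgtagggcgc
DNAJB9 (chr7:108569826-108569830, plus strand): ggcgccgggatcACGTGgggaggcagaag
The cores can share bases with the CCACG part of the ER stress elements, as in the HERPUD1 site. Each DNAJB9 site shown also shares bases with a CCACG on either strand, outside any full element. A match describes letters in a window and was not tested as a binding site.

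The 18 libraries held 12925719 to 22332639 counts, and the levels below are CPM, read counts over library size, where library sizes were scaled line by line with the TMM method, which assumes that most genes do not change. The 10 genes took from 0.271% to 0.520% of a library. Pairs of replicates differed by more than counting error in each group, and pairs with replicate 1 of Caco-2 CoCl2, replicate 1 of Caco-2 OD and replicate 3 of the HT-29 controls differed most within their groups. The 7 epithelial markers summed to 4650 to 4809 CPM in Caco-2 controls and 5120 to 5152 in HT-29 controls, and to 6153 to 7984 in treated libraries of both lines. EPCAM, CDH1, KRT8 and KRT18 made up most of this, while KRT20 was at 5.06 to 16.2 CPM in Caco-2 and CDX2 at 4.33 to 14.5 in HT-29. VIL1 stood at 776 to 823 CPM in Caco-2 controls and 426 to 465 with CoCl2, and at 202 to 208 in HT-29 controls, 30.1 to 35.4 with CoCl2 and 88.3 to 95.9 with OD. The 8 enterocyte markers summed to 3728 to 5312 CPM over the Caco-2 libraries and to 144 to 213 over those of HT-29, where ALPI and APOA4 were at 0 to 2 counts. With CoCl2 in Caco-2, SI (94.2 to 131 CPM against 246 to 319 in controls) and FABP1 (122 to 137 against 214 to 227) were lower. ALPI and ANPEP also lay below the controls. APOA1, the largest part of the Caco-2 sum, was higher (3472 to 4188 against 2414 to 2727), as was APOA4 (45.6 to 72.2 against 9.90 to 15.9). DPP4 and FABP2 overlapped the controls. The 3 goblet cell markers summed to 36.4 to 46.1 CPM in Caco-2 controls, 22.1 to 24.7 with CoCl2 and 26.7 to 29.9 with OD. In HT-29 their sum was 60.7 to 66.4 CPM in controls, 25.4 to 35.1 with CoCl2 and 40.6 to 41.6 with OD. The 6 markers of leukocytes, endothelium and fibroblasts summed to 19.0 to 39.8 CPM in Caco-2, mostly COL1A1 in the controls (23.6 to 26.5), and to 2.39 to 7.18 in HT-29, and PTPRC of leukocytes reached at most 2 counts. The part of a change of cell state in the values below was not tested, and in bulk RNA fewer cells of a type and less RNA per cell cannot be told apart.

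Per length, the chaperones CALR and HSP90B1 had the highest levels of the 10 in Caco-2 controls, with means of 260 and 234 RPKM, and ERN1 had the lowest with 3.70 RPKM. In HT-29 controls the order by length-scaled level differed at the top, where XBP1 had 197 RPKM, HSP90B1 134 and HSPA5 99.1, and at the bottom, where SDF2L1 had 3.60. HSPA5 led the 10 in HT-29 after either agent, with 338 RPKM for CoCl2 and 372 for OD.

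**Figure D1:**
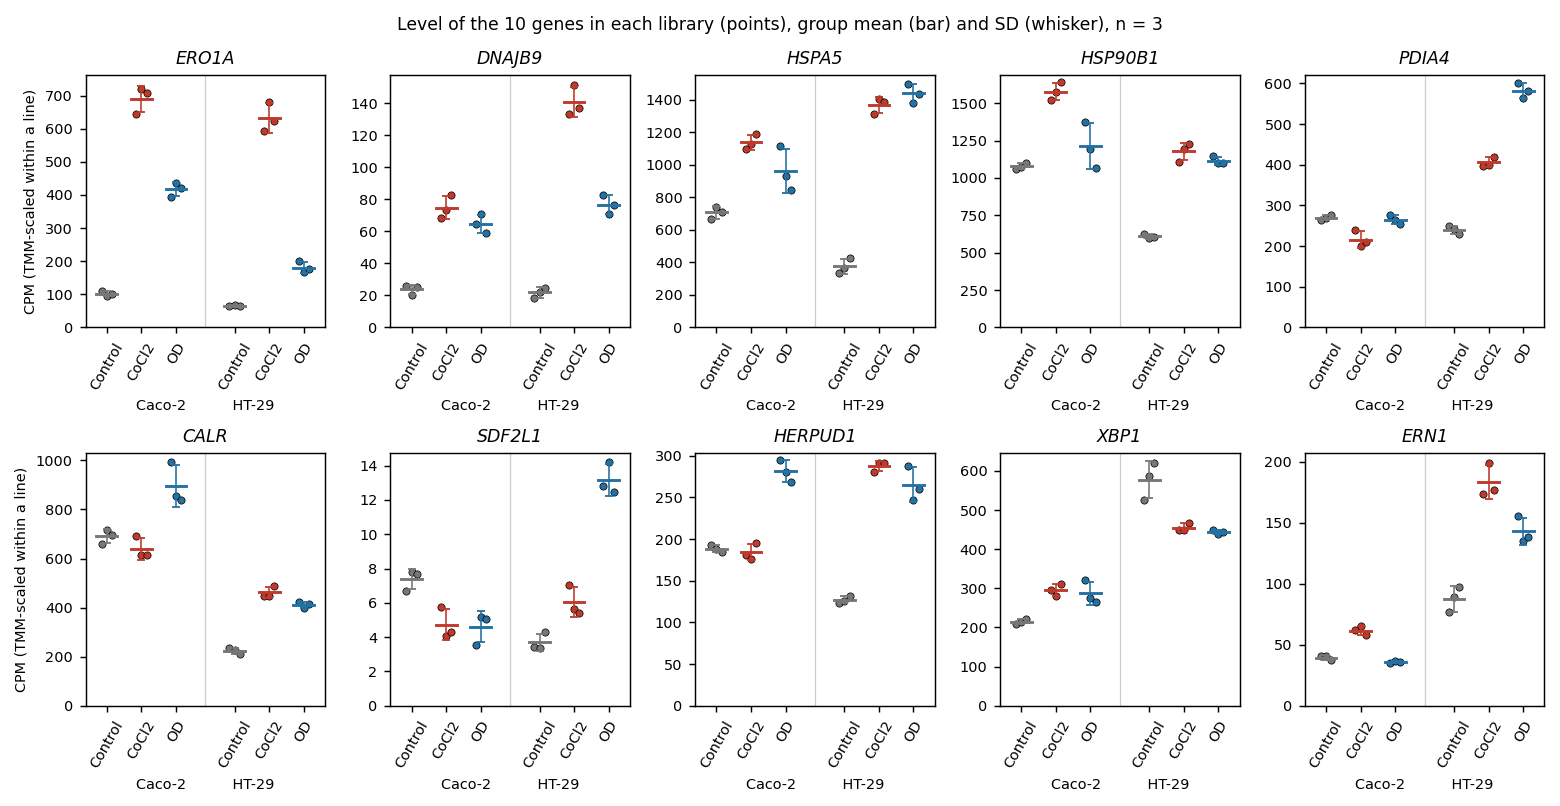
Level of each gene in every library, in CPM scaled by TMM within a line (vertical axis from 0), by group along the horizontal axis, with controls in grey, CoCl2 in red and OD in blue. Points are the 3 libraries, bars the mean and whiskers the SD, and HSPA5 in HT-29 can be seen to go from 337 to 426 CPM in controls to between 1315 and 1497 CPM in the treated libraries.

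In Caco-2, 6 of the 10 genes rose and 2 fell with CoCl2 (FDR under 0.05 in edgeR at any fold), where 64.7% of all genes passed, 31.6% as higher and 33.1% as lower. Only DNAJB9 and ERO1A were called, that is, they also changed by more than 1 on the log2 scale, against 23.4% of all genes called and 9.13% called as higher. With OD, 6 rose and 1 fell (50.4% of all genes passed, 25.7% as higher and 24.7% as lower), and the same 2 genes were called (11.7% of all genes, 4.43% as higher). The groups did not overlap for 8 genes with CoCl2 and for 8 with OD, compared with 69.0% and 59.4% of all genes. Over the 10 genes the log2 difference had a median of 0.51 after CoCl2 and 0.40 after OD, beside -0.03 and -0.02 over all genes.

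In HT-29, 9 of the 10 genes rose and 1, XBP1, fell with each agent. Of all genes, 82.8% passed for CoCl2 (40.7% as higher, 42.2% as lower) and 68.8% for OD (34.7% as higher, 34.0% as lower). The treated and control libraries did not overlap for any of the 10, as for 83.2% and 71.1% of all genes. With CoCl2 6 genes were called, HSPA5, DNAJB9, HERPUD1, CALR, ERN1 and ERO1A (41.3% of all genes, 17.4% as higher). With OD 6 were also called, HSPA5, DNAJB9, HERPUD1, SDF2L1, PDIA4 and ERO1A (17.1% of all genes, 9.50% as higher). The medians were 1.05 and 1.17, beside -0.03 and 0.01 over all genes. The comparisons of both agents in a line share the 3 control libraries. The CoCl2 count of 6 rests on values close to the fold limit, being 3 when libraries were scaled by total counts alone and 5 without CoCl2 replicate 2, control replicate 1 or control replicate 3.

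**Figure D2:**
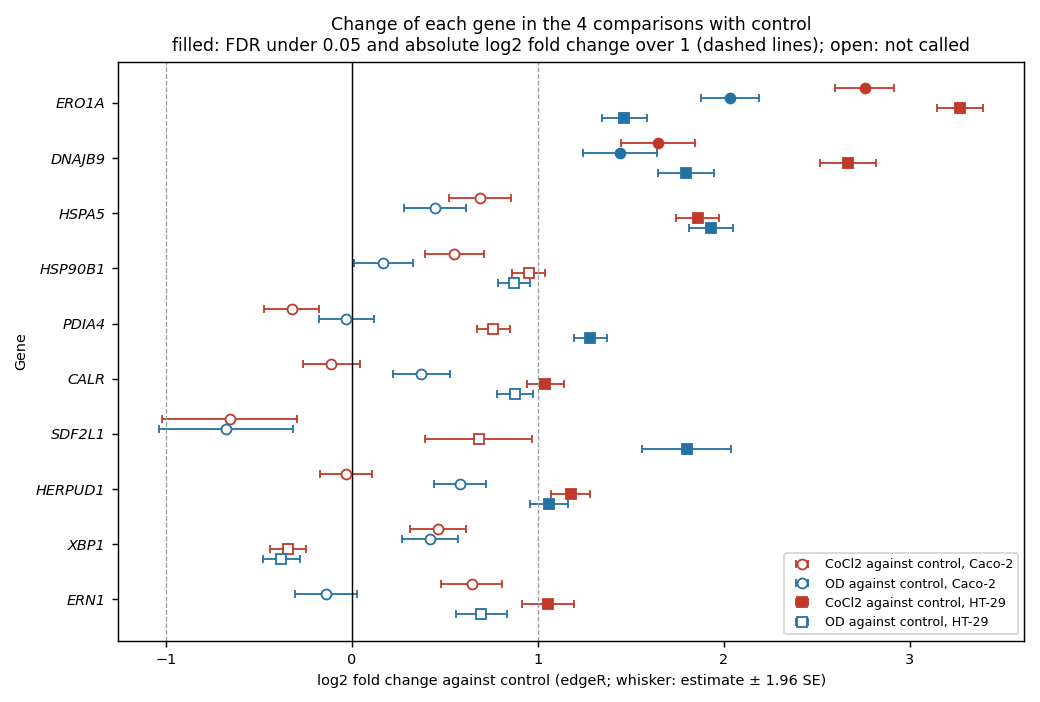
The log2 fold change of each gene against control (horizontal axis) in Caco-2 (circles) and HT-29 (squares) for CoCl2 (red) and OD (blue), with 95% intervals from the SE as whiskers and filled symbols for called genes. ERO1A and DNAJB9 are filled in all 4 comparisons, while SDF2L1, PDIA4 and XBP1 lie on opposite sides of 0 in the lines for CoCl2, as do CALR and HERPUD1, whose values in Caco-2 were close to 0 and did not pass.

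ERO1A encodes the oxidase that passes electrons from protein disulfide isomerases to oxygen and so keeps disulfide formation going (chromosome 14, 52639915 to 52695900, minus strand). In Caco-2 it stood at 109, 94.2 and 102 CPM in the controls, at 644, 719 and 707 with CoCl2 and at 395, 437 and 420 with OD. In HT-29 the controls had 63.8, 68.0 and 64.7 CPM, the CoCl2 libraries 592, 680 and 623, and the OD libraries 199, 167 and 175. In both lines the 3 conditions were fully separated, with CoCl2 highest. The log2 fold change with CoCl2 was 2.76 (SE 0.08, edgeR FDR 5.72e-19) in Caco-2 and 3.27 (SE 0.06, edgeR FDR 3.29e-25) in HT-29, or 6.76-fold and 9.65-fold. With OD it was 2.03 (SE 0.08, edgeR FDR 3.48e-16) in Caco-2 and 1.46 (SE 0.06, edgeR FDR 3.49e-17) in HT-29. Few genes rose more: by rank of the log2 fold change ERO1A was number 155 for CoCl2 and number 122 for OD of 16034 genes in Caco-2, and number 246 and number 774 of 15812 in HT-29. A long noncoding RNA lies on the other strand of this locus. Genes also overlap HSP90B1, CALR and ERN1 on the other strand, and long noncoding RNAs overlap HERPUD1 on its own strand. Whether the counting used strand is not given in the sources used here.

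DNAJB9 encodes a J-domain partner of the chaperone BiP (chromosome 7, 108569867 to 108574850, plus strand). It was a low-level gene in controls, at 25.8, 20.5 and 25.3 CPM in Caco-2, and at 18.4, 22.3 and 24.8 in HT-29. CoCl2 libraries held 68.2, 73.6 and 82.6 CPM in Caco-2, and HT-29 held 134, 151 and 137. OD libraries held 64.7, 70.6 and 59.3 CPM in Caco-2, against 83.0, 70.8 and 76.6 for HT-29. Treated libraries were above every control of their line. The rise was 1.65 (SE 0.10, edgeR FDR 7.30e-13) and 1.44 (SE 0.10, edgeR FDR 2.76e-11) on the log2 scale in Caco-2 for CoCl2 and OD. In HT-29 it was 2.67 (SE 0.08, edgeR FDR 1.44e-21) and 1.80 (SE 0.08, edgeR FDR 5.75e-17).

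HSPA5 encodes BiP, the ER member of the HSP70 family, which binds unfolded chains and holds the UPR sensors inactive (chromosome 9, 125234853 to 125241382, minus strand). Its Caco-2 controls had 668, 744 and 710 CPM, the CoCl2 libraries 1097, 1128 and 1189, and the OD libraries 1114, 930 and 846. Its HT-29 controls were lower, at 337, 367 and 426 CPM, and the treated libraries were higher than those of Caco-2, at 1315, 1406 and 1387 with CoCl2 and 1497, 1381 and 1438 with OD. In HT-29 the ranges of the agents overlapped each other and lay far above the controls. Scaled by total counts alone, the CoCl2 libraries of the lines overlapped, at 1016 to 1075 CPM in HT-29 and 976 to 1049 in Caco-2. The rise in HT-29 was 3.63-fold with CoCl2 (log2 1.86, SE 0.06, edgeR FDR 1.68e-20) and 3.81-fold with OD (log2 1.93, SE 0.06, edgeR FDR 5.75e-20). In Caco-2 it was 1.61-fold with CoCl2 (log2 0.69, SE 0.09, edgeR FDR 1.78e-07) and 1.36-fold with OD (log2 0.45, SE 0.09, edgeR FDR 1.22e-04). Without OD replicate 1, the highest of its group, the OD value in Caco-2 was 0.33 and still passed. Reads given to the processed pseudogene HSPA5P1, a near copy, numbered 1 to 33 per library.

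HSP90B1 encodes GRP94, the ER member of the HSP90 family, which finishes the folding of a limited set of clients (chromosome 12, 103930107 to 103953931, plus strand). In Caco-2 it went from 1061 to 1101 CPM in the controls to between 1523 and 1640 with CoCl2, a log2 rise of 0.55 (SE 0.08, edgeR FDR 2.33e-06). With OD the Caco-2 libraries spread from 1067 to 1374 CPM and overlapped the controls, and the difference of 0.17 did not pass (SE 0.08, edgeR FDR 0.0839), and it moved with single libraries, to 0.26 without OD replicate 3, where it passed (edgeR FDR 0.00972), and to 0.070 without OD replicate 1 (edgeR FDR 0.404). It passed with no filter on low counts and was 0.013 with scaling by total counts alone (edgeR FDR 0.891). In HT-29 the controls lay at 598 to 628 CPM and the treated libraries at 1099 to 1226. There the log2 rise was 0.95 (SE 0.04, edgeR FDR 8.15e-17) with CoCl2 and 0.87 (SE 0.04, edgeR FDR 1.98e-15) with OD, both under the fold limit.

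PDIA4 encodes ERp72, a protein disulfide isomerase (chromosome 7, 149003062 to 149028662, minus strand). Its level in Caco-2 was 263, 269 and 277 CPM in the controls, 239, 200 and 209 with CoCl2, and 275, 264 and 254 with OD. CoCl2 libraries were all below the controls, and OD libraries overlapped them. The log2 difference was -0.32 for CoCl2 (SE 0.08, edgeR FDR 6.15e-04) and -0.03 for OD (SE 0.07, edgeR FDR 0.763). Scaled by total counts alone, the OD value was -0.18 and passed as lower (edgeR FDR 0.0322). In HT-29 the controls had 248, 241 and 230 CPM, close to those of Caco-2, and rose to 398, 399 and 420 with CoCl2 and to 601, 565 and 581 with OD. These rises were 0.76 (SE 0.05, edgeR FDR 2.01e-14) and 1.28 (SE 0.05, edgeR FDR 1.18e-18) on the log2 scale.

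SDF2L1 encodes a small ER protein found in chaperone complexes (chromosome 22, 21642302 to 21644299, plus strand). It was the thinnest of the 10 in reads, with 53 to 248 counts per library. In Caco-2 the level was 6.69, 7.78 and 7.69 CPM in the controls, 5.75, 4.07 and 4.33 with CoCl2 and 3.56, 5.16 and 5.08 with OD. In HT-29 it was 3.42, 3.39 and 4.28 CPM in the controls, 7.02, 5.67 and 5.43 with CoCl2 and 12.8, 14.2 and 12.5 with OD. The gene moved in opposite directions in the lines, and none of these treated groups overlapped its controls. In Caco-2 it fell by 0.66 with CoCl2 (SE 0.18, edgeR FDR 0.00323) and by 0.68 with OD (SE 0.18, edgeR FDR 0.00359) on the log2 scale. In HT-29 it rose by 0.68 with CoCl2 (SE 0.15, edgeR FDR 1.46e-04) and by 1.80, or 3.48-fold, with OD (SE 0.12, edgeR FDR 6.72e-13). Scaled by total counts alone, the rise with CoCl2 in HT-29 was 0.05 and did not pass (edgeR FDR 0.761).

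CALR encodes calreticulin, a lectin chaperone of glycoproteins that also stores calcium (chromosome 19, 12938578 to 12944489, plus strand). In Caco-2 the controls had 661, 717 and 695 CPM, the CoCl2 libraries 693, 615 and 613, and the OD libraries 992, 855 and 838. The CoCl2 libraries overlapped the controls, with a log2 difference of -0.11 (SE 0.08, edgeR FDR 0.223), while OD raised CALR by 0.37 (SE 0.08, edgeR FDR 3.43e-04). In HT-29 the controls had 235, 228 and 211 CPM, the CoCl2 libraries 449, 448 and 488 and the OD libraries 422, 400 and 415. The rise there was 1.04 (SE 0.05, edgeR FDR 1.02e-16) with CoCl2 and 0.88 (SE 0.05, edgeR FDR 1.36e-14) with OD. All HT-29 libraries were below all Caco-2 libraries, treated or not.

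HERPUD1 encodes a membrane protein that brings substrates to the ERAD ubiquitin ligase (chromosome 16, 56932142 to 56944864, plus strand). In Caco-2 it had 193, 188 and 185 CPM in the controls, 181, 177 and 195 with CoCl2, and 295, 281 and 269 with OD. CoCl2 libraries straddled the controls (log2 -0.03, SE 0.07, edgeR FDR 0.713), and OD libraries were all higher (log2 0.58, SE 0.07, edgeR FDR 3.13e-07). In HT-29 it went from 123, 126 and 132 CPM to 280, 291 and 291 with CoCl2 and to 288, 247 and 260 with OD. This was a log2 rise of 1.18 (SE 0.05, edgeR FDR 3.05e-17) and of 1.06 (SE 0.05, edgeR FDR 1.07e-15). For CALR and HERPUD1 the values with CoCl2 in Caco-2 became -0.43 and -0.35 and passed as lower when libraries were scaled by total counts alone.

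XBP1 encodes the transcription factor downstream of IRE1 (chromosome 22, 28794555 to 28800597, minus strand), and gene counts do not separate its spliced from its unspliced mRNA. In Caco-2 it had 209, 214 and 221 CPM in the controls, 296, 281 and 311 with CoCl2 and 320, 276 and 265 with OD. HT-29 controls were at 526, 587 and 621 CPM, above every other library, and fell to 448, 450 and 468 with CoCl2 and to 450, 439 and 445 with OD. The treated libraries of the lines thus stood closer to each other than the controls did. XBP1 rose in Caco-2 by 0.46 with CoCl2 (SE 0.08, edgeR FDR 1.32e-05) and by 0.42 with OD (SE 0.08, edgeR FDR 7.59e-05) on the log2 scale, and fell in HT-29 by 0.34 (SE 0.05, edgeR FDR 5.48e-07) and by 0.38 (SE 0.05, edgeR FDR 1.86e-07). The rise with CoCl2 in Caco-2 was 0.14 and did not pass when libraries were scaled by total counts alone (edgeR FDR 0.0727).

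ERN1 encodes the sensor IRE1 itself (chromosome 17, 64039080 to 64130819, minus strand). In Caco-2 the controls had 37.3 to 40.4 CPM, CoCl2 libraries 57.9 to 65.0 and OD libraries 34.8 to 36.9. CoCl2 raised it by 0.64 on the log2 scale (SE 0.08, edgeR FDR 3.46e-07), and the OD difference of -0.14 did not pass (SE 0.09, edgeR FDR 0.181) although the libraries did not overlap. Scaled by total counts alone, that OD value was -0.29 and passed as lower (edgeR FDR 0.0085). In HT-29 the controls had 76.5 to 97.4 CPM, CoCl2 libraries 173 to 199 and OD libraries 135 to 155. The rise in HT-29 was 1.05 with CoCl2 (SE 0.07, edgeR FDR 1.58e-13) and 0.70 with OD (SE 0.07, edgeR FDR 1.60e-09).

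Counts of 1 gene per 100 counts of HSPA5 in the same library do not depend on how libraries are scaled, and they showed how unevenly the 10 genes moved. For ERO1A this ratio was 12.7 to 16.4 in Caco-2 controls, 58.7 to 63.7 with CoCl2 and 35.5 to 49.7 with OD. In HT-29 it was 15.2 to 18.9 in controls, 44.9 to 48.4 with CoCl2 and 12.1 to 13.3 with OD, below the controls. Relative to BiP, ERO1A was therefore higher with OD in Caco-2 and lower with OD in HT-29. For XBP1 the ratio in HT-29 was 146 to 160 in controls, 32.0 to 34.1 with CoCl2 and 30.0 to 31.8 with OD. In Caco-2 the XBP1 ratio stayed between 24.9 and 31.4 in all 9 libraries, so that treated HT-29 libraries came close to the Caco-2 range. The SDF2L1 ratio was 1.00 to 1.08 in Caco-2 controls and 0.320 to 0.600 in the treated libraries of that line, and in HT-29 it was 0.857 to 1.03 with OD, 0.392 to 0.534 with CoCl2 and 0.924 to 1.01 in controls. With 3 libraries in a group these ratios are given as a description.

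Set against each other at their own doses in Caco-2, CoCl2 and OD gave differences that passed for 7 of the 10 genes (49.6% of all genes), 4 as higher with CoCl2 (24.4%) and 3 as higher with OD (25.2%). Their libraries did not overlap for 6 of the 10 (52.8%). With the fold limit 0 were called by edgeR and 0 by DESeq2, against 11.7% of all genes, although 8 of the 10 had an unadjusted p under 0.05. CoCl2 was higher than OD for ERN1 (log2 0.78, SE 0.08, edgeR FDR 4.31e-08), ERO1A (0.72, SE 0.08, edgeR FDR 2.35e-08), HSP90B1 (0.38) and HSPA5 (0.24, edgeR FDR 0.0217). The HSPA5 value ran from 0.15 to 0.37 with single libraries left out, was lowest without OD replicate 3 and highest without OD replicate 1, and did not pass without OD replicate 2 or 3 or CoCl2 replicate 3 (edgeR FDR up to 0.155), nor with scaling by total counts alone (0.08, edgeR FDR 0.412). OD was higher for HERPUD1 (-0.61, SE 0.07, edgeR FDR 1.48e-07), CALR (-0.48) and PDIA4 (-0.29). XBP1 and SDF2L1 differed by 0.04 and 0.02, with 95% intervals of -0.11 to 0.19 and -0.36 to 0.40, and both values changed sign with scaling by total counts alone.

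In HT-29 the agents differed for 7 of the 10 genes (77.7% of all genes passed), 5 as higher with CoCl2 (37.1%) and 2 as higher with OD (40.6%), and the libraries did not overlap for 6 (78.9%). There were 2 called genes (29.9%), 1 in each direction (10.8% and 19.2%). ERO1A was higher with CoCl2 by 1.81 (SE 0.06, edgeR FDR 4.43e-20), or 3.50-fold, and SDF2L1 was higher with OD, at -1.12 (SE 0.12, edgeR FDR 4.70e-09). DNAJB9 was higher with CoCl2 by 0.87 and PDIA4 higher with OD, at -0.52. HSPA5 differed by -0.07, with a 95% interval of -0.18 to 0.04. The small positive values of HERPUD1 (0.12), CALR (0.16), ERN1 (0.36), HSP90B1 (0.08) and XBP1 (0.03) all turned negative with scaling by total counts alone (-0.38, -0.33, -0.14, -0.42 and -0.46), so their direction depends on the scaling. In the change of scale the median over all genes moved by -0.50 in this comparison, by -0.63 for CoCl2 against control in HT-29 and by -0.32 in Caco-2. Against control, each of the 10 genes kept its sign in the 4 comparisons under that change.

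The difference in response between the lines was tested over the 18 libraries as the change in HT-29 less the change in Caco-2. For CoCl2 all 10 genes passed (49.8% of all genes), 9 with a larger value in HT-29 (21.1%) and XBP1 with a smaller one (28.6%), and 4 were called (21.6% of all genes, 7.79% as higher). The called genes were SDF2L1 (1.24, SE 0.23, edgeR FDR 3.77e-05), HERPUD1 (1.10, SE 0.09, edgeR FDR 2.88e-12), HSPA5 (1.06, SE 0.11, edgeR FDR 1.22e-09) and CALR (1.04, SE 0.10, edgeR FDR 3.52e-11). PDIA4 (0.98), DNAJB9 (0.92) and XBP1 (-0.91) followed, and HSP90B1, ERN1 and ERO1A had values of 0.29 to 0.41 that no longer passed with scaling by total counts alone, where the count of called genes was 2. By single libraries the count went from 3, without HT-29 CoCl2 replicate 3 or control replicate 1, to 5, without Caco-2 CoCl2 replicate 1, Caco-2 control replicate 2 or HT-29 control replicate 3, and the ERN1 value did not pass when any 1 of 5 libraries was left out, nor that of HSP90B1 without HT-29 CoCl2 replicate 3.

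For OD all 10 passed as well (42.9% of all genes), 8 with a larger value in HT-29 (20.9%) and 2 with a smaller one (22.0%), and 3 were called (15.2% of all genes, 8.96% as higher). SDF2L1 differed most, by 2.46 (SE 0.22, edgeR FDR 3.20e-11), which is 5.51-fold, followed by HSPA5 with 1.47 (SE 0.11, edgeR FDR 1.41e-12) and PDIA4 with 1.29 (SE 0.09, edgeR FDR 8.58e-14). XBP1 (-0.82, SE 0.10, edgeR FDR 1.63e-08) and ERO1A (-0.59, SE 0.10, edgeR FDR 1.64e-05) had the smaller value in HT-29. DNAJB9 passed narrowly (0.34, SE 0.14, edgeR FDR 0.0463). With single libraries left out its edgeR FDR lay between 0.0115 and 0.192, and it did not pass in 11 of 18 such fits. The tests for the agents share the control libraries.

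**Figure D3:**
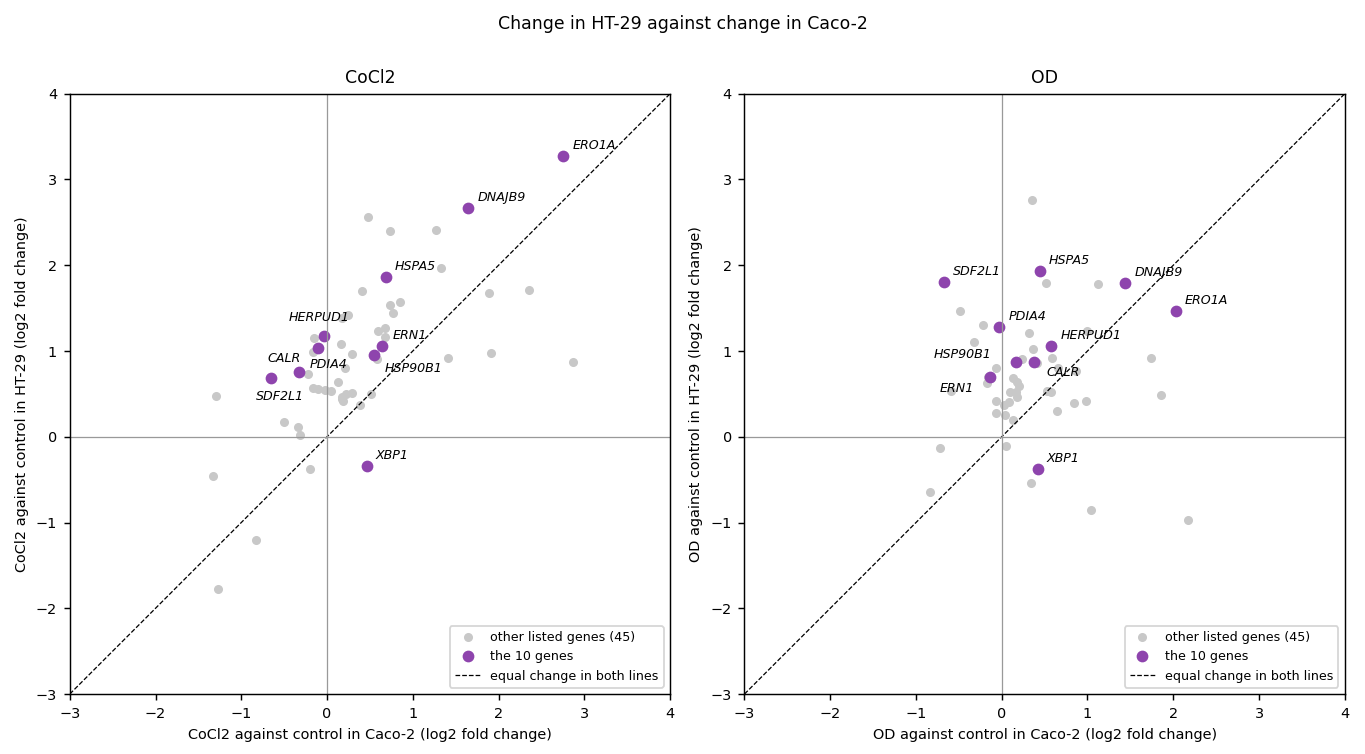
Log2 fold change against control in HT-29 (vertical axis) against that in Caco-2 (horizontal axis) for CoCl2 (left) and OD (right), with the 10 genes in purple, 45 other genes of the pathway in grey and a dashed line where the changes are equal. XBP1 lies below the line in both panels and ERO1A is below it for OD, at 2.03 in Caco-2 and 1.46 in HT-29.

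Between the untreated lines, XBP1 (log2 1.52, SE 0.07, edgeR FDR 4.70e-20) and ERN1 (1.25, SE 0.08, edgeR FDR 1.40e-15) were higher in HT-29 and CALR was lower (-1.53, SE 0.07, edgeR FDR 2.43e-20). These 3 were the called genes of the 10, against 45.8% of all genes (21.6% as higher and 24.2% as lower in HT-29). At any fold 8 passed (79.1% of all genes), 2 as higher (39.5%) and 6 as lower (39.6%). HSPA5 (-0.82), HSP90B1 (-0.73), SDF2L1 (-0.88), ERO1A (-0.55) and HERPUD1 (-0.48) were also lower in HT-29, and DNAJB9 (-0.03) and PDIA4 (-0.08) did not pass. In the order of the 6 groups on 1 scale for both lines, HSPA5 was lowest in HT-29 controls (394 CPM) and highest in HT-29 with OD (1490) and with CoCl2 (1329). HSP90B1 had its highest mean in Caco-2 with CoCl2 (1550 CPM), while Caco-2 OD, HT-29 OD, HT-29 CoCl2 and Caco-2 control followed at 1193, 1154, 1143 and 1059 with overlap between neighbours. For ERO1A the CoCl2 groups overlapped at the top (678 in Caco-2 and 613 CPM in HT-29), and the other 4 groups were separate.

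The rest of the pathway was counted in 4 lists of 47 genes in all, written from general knowledge. Their counts are to be read against all genes, of which 31.6% rose and 33.1% fell with CoCl2 and 25.7% and 24.7% with OD in Caco-2, and 40.7% and 42.2%, then 34.7% and 34.0%, in HT-29. Among the UPR sensors and the proteases that activate ATF6, 6 genes, 1 rose and 2 fell of 5 tested in Caco-2 with each agent. In HT-29 3 rose and 3 fell with CoCl2, and 2 rose and 4 fell with OD. ERN2, the IRE1 paralog of mucous epithelium, had 32.8 ± 1.83 CPM (SD, n = 3) in untreated HT-29 cells, 1.95 ± 0.386 after CoCl2 and 8.88 ± 2.32 after OD, a fall of 4.06 (SE 0.16, edgeR FDR 1.05e-18) and of 1.89 (SE 0.11, edgeR FDR 2.45e-14), and was too low to test in Caco-2. EIF2AK3, which encodes PERK, rose by 1.45 with CoCl2 in HT-29 (SE 0.06, edgeR FDR 2.36e-18) and by 0.42 with OD, and by 0.77 and 0.99 in Caco-2. ATF6B fell by 1.33 with CoCl2 in Caco-2 (SE 0.09, edgeR FDR 6.09e-12), and MBTPS2, the site-2 protease, by 1.20 with CoCl2 in HT-29 (SE 0.10, edgeR FDR 1.10e-11).

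Of 16 ER folding helpers, 7 rose and 3 fell with CoCl2 and 5 rose and 3 fell with OD in Caco-2 (31.6% and 25.7% of all genes rose), and in HT-29 14 rose and 1 fell with CoCl2 and 15 rose with OD (40.7% and 34.7%). The list's medians were 0.23 and 0.14 for Caco-2, then 0.85 and 0.69 for HT-29, beside the all-gene medians given above. HYOU1, a nucleotide exchange factor of BiP, had values of -0.16 (edgeR FDR 0.0518) with CoCl2 and -0.22 with OD in the Caco-2 libraries, and rose in HT-29 by 1.16 and 1.30. CRELD2 fell by 1.30 with CoCl2 in Caco-2 (SE 0.14, edgeR FDR 2.65e-08) and rose by 1.47 with OD in HT-29 (SE 0.10, edgeR FDR 1.16e-12). MANF, a secreted ER protein, rose by 1.80 with OD in HT-29 (SE 0.06, edgeR FDR 1.56e-19) and by 0.52 in Caco-2. DNAJC3, a BiP partner that also restrains PERK, rose by 1.71 with CoCl2 in HT-29 and P4HB, the founding disulfide isomerase and a subunit of collagen prolyl hydroxylase, by 1.57. HSPA13 rose with CoCl2 by 1.89 in Caco-2 and 1.67 in HT-29.

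Of 16 genes of ERAD and of translocation into or out of the ER, 11 rose and 1 fell with CoCl2 and 8 rose and 1 fell with OD in Caco-2 (31.6% and 25.7% of all genes rose), while in HT-29 15 of 15 tested rose with each agent (40.7% and 34.7%). The medians for this list were 0.27 and 0.28 (Caco-2), then 0.99 and 0.77 (HT-29). SEC24D, a cargo selector of vesicles leaving the ER, was called in all 4 comparisons, with log2 rises of 1.27 and 1.12 for Caco-2, then 2.41 and 1.78 for HT-29. SEC61G, a subunit of the translocation channel, rose by 1.32 in Caco-2 and 1.97 in HT-29 with CoCl2. DERL1 rose by 1.54 with CoCl2 in HT-29, and EDEM1 and SEL1L, which recognise and export misfolded glycoproteins, by 1.20 and 1.11 with OD.

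Among 9 genes of the PERK branch and ATF4 targets, 5 rose and 1 fell with CoCl2 and 8 rose with OD in Caco-2, and in HT-29 8 rose and 1 fell with CoCl2 and 6 rose and 3 fell with OD, beside the same shares of all genes. Here the lines stood the other way round for OD, with a median of 0.99 for Caco-2 against 0.39 for HT-29. Of the 9 line differences for OD, 7 passed as lower in HT-29 and the rest did not pass. Between the untreated lines all 9 genes passed as higher in HT-29 (39.5% of all genes), with a median of 2.13 on the log2 scale. Whether this control level accounts for the smaller OD values in HT-29 was not tested. ATF3 rose by 2.87 and 2.17 in Caco-2, while in HT-29 it rose by 0.87 with CoCl2 and fell by 0.97 with OD, where its controls were much higher (145 against 4.63 CPM in Caco-2). PPP1R15A, which restores translation after PERK acts, rose by 2.35 and 1.86 in Caco-2, and its rises in HT-29 were 1.71 and 0.48. DDIT3, encoding CHOP, rose by 2.40 and 1.23 in HT-29 and by 0.74 and 0.99 in Caco-2, while TRIB3 rose by 1.41 with CoCl2 in Caco-2, SESN2 by 1.08 with CoCl2 in HT-29, and CHAC1 fell by 1.78 with CoCl2 in HT-29.

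**Figure D4:**
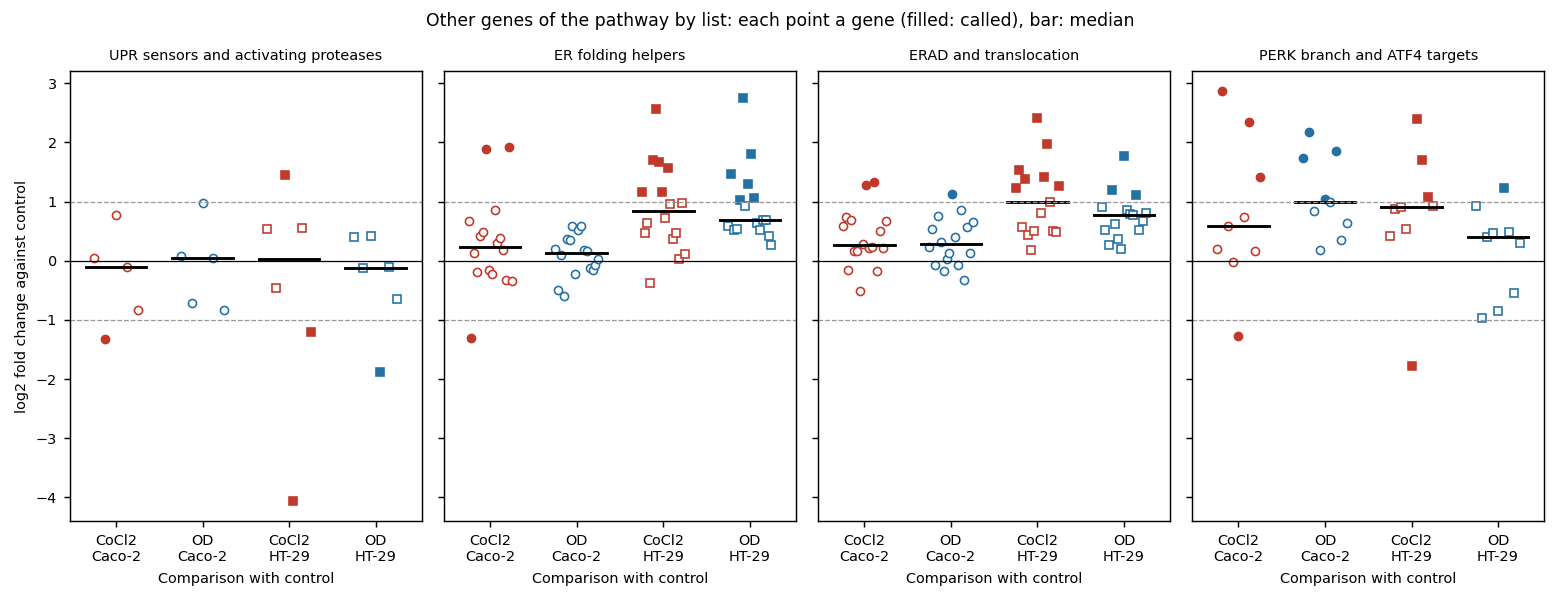
Log2 fold change against control (vertical axis) of each tested gene of the 4 lists in the 4 comparisons along the horizontal axis, filled where called, with a black bar at the median. The folding and ERAD lists have medians of 0.14 to 0.28 in Caco-2 and 0.69 to 0.99 in HT-29, and the PERK and ATF4 list has its highest median, 0.99, with OD in Caco-2.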

How the data were processed

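mRNA was measured in 18 libraries with a stranded kit and single-end reads of 75 nt. Per the labels, the authors used cutadapt 2.10, FastQC 0.11.9 and STAR 2.7.5b on GRCh38 with a GENCODE annotation, and they deposited raw read counts per gene. The counting tool and its use of strand are not given in the sources used here. The authors also deposited a table of log2 values of 14230 genes, read here as log2 of RPKM plus 1. Turned back to RPKM, each value was divided by the CPM on TMM-scaled library sizes. Across the libraries of a line this ratio stayed within 5 percent of its median for 100 percent of the genes checked. The scaling by gene length was taken from the deposited values and was not recomputed. Neither table of the study's miRNA libraries was used, and 0 sample columns of the tables used were left without a sample. Groups were taken from the sample titles.

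Counts were tested with edgeR 4.0.16 in R 4.3.3 (TMM, filterByExpr, quasi-likelihood F test, two-sided). Each line was fitted over its 9 libraries with 1 coefficient per group, and line differences over all 18. P-values were adjusted by Benjamini-Hochberg over all 16034 genes tested in Caco-2, 15812 in HT-29 and 17921 in both. A gene was called at an FDR under 0.05 with an absolute log2 fold change over 1, the study's thresholds, and "rose" or "fell" stands for the FDR alone. SE is the log2 fold change divided by the root of F, and 95% intervals are normal. The study tested with DESeq2, run here (1.42.0) as an alternative, besides limma 3.58.1 on log2 values with pseudocount 1 or 0.1. Other alternatives were scaling by total counts, no filter, no fold limit, a replicate block and each library left out. Depth ran from 12925719 to 22332639 counts, and the median SE over all genes tested in the 4 comparisons with control was 0.111. The scripts were tested on simulated data.

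The 10 genes and the 4 lists were chosen with earlier results of these data known. The text names all 10, and of each list up to 3 genes with the highest and 3 with the lowest log2 fold change per comparison among called genes with a mean count of at least 100 and no overlap. The genes most like HSPA5 and ERO1A were found by Pearson r, and some of them are not reported here. Coordinates are of GENCODE v44 on GRCh38, promoter windows of RefSeq.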

Additional observations from a re-analysis of the deposited data

Results flagged for a closer look

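The following results met the criterion that the response differed between the lines, by the edgeR interaction test, and that the difference was over the fold limit or had opposite signs in the lines with both passing. For CoCl2, the change in HT-29 less the change in Caco-2 was 1.24 for SDF2L1, 1.10 for HERPUD1, 1.06 for HSPA5, 1.04 for CALR, 0.98 for PDIA4 and -0.91 for XBP1 on the log2 scale. For OD it was 2.46 for SDF2L1, 1.47 for HSPA5, 1.29 for PDIA4 and -0.82 for XBP1.

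XBP1 and SDF2L1 with each agent, and PDIA4 with CoCl2, moved in opposite directions in the lines and both changes passed. For CoCl2 this depends on the scaling. By total counts alone, the SDF2L1 rise in HT-29 (0.05, edgeR FDR 0.761) and the XBP1 rise in Caco-2 (0.14, edgeR FDR 0.0727) did not pass. The PDIA4 rise with CoCl2 in HT-29 was as low as 0.13 over the alternatives and passed in each of them. XBP1 and PDIA4 had about 200 CPM or more in each library, so counting error was small for them, while SDF2L1 rested on 53 to 248 counts. Whether line, culture state or control level accounts for these differences was not tested, and line and culture state cannot be told apart.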

How the results depend on the processing

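Counting every gene under FDR 0.05 whatever its fold, the members called became 8 and 7 for CoCl2 and OD in Caco-2, 10 and 10 for HT-29, 7 and 7 between the agents, 10 and 10 for the line differences and 8 for the controls, and the list calls over the 4 comparisons with control 18 (UPR sensors), 48 (folding helpers), 51 (ERAD) and 32 (PERK branch). In the same order of comparisons, the shares of all genes were 64.7% and 50.4%, 82.8% and 68.8%, 49.6% and 77.7%, 49.8% and 42.9%, and 79.1%. With scaling by total counts alone, 3 of the 10 were called for CoCl2 in HT-29 instead of 6, 2 instead of 4 for the CoCl2 line difference, and 5 instead of 13 in the ERAD list, where the alternative moves all genes by the shift given above. The share of all genes called under this scaling is not given here, so the lower counts are not read as particular to these genes. In CoCl2 against OD this scaling reversed XBP1 (-0.12) and SDF2L1 (-0.15) in Caco-2 and HSP90B1 (-0.42), XBP1 (-0.46), HERPUD1 (-0.38), CALR (-0.33) and ERN1 (-0.14) in HT-29. With no filter on low counts SDF2L1 in Caco-2 (-0.012) and XBP1 in HT-29 (-0.020) changed sign, as did XBP1 in HT-29 with limma on the deposited log2 values (-0.0337) and with pseudocount 0.1 (-0.0339). The cause of these small changes was not tested.

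Leaving out single libraries gave called members of 2 to 2 (CoCl2) and 2 to 2 (OD) in Caco-2, 5 to 6 and 5 to 6 for HT-29, 0 to 0 and 2 to 2 between agents, 3 to 5 and 3 to 3 for line differences and 3 to 4 for controls. Values that changed sign ran from -0.071 to 0.0054 for HERPUD1 (CoCl2, Caco-2), -0.059 to 0.0059 for PDIA4 (OD, Caco-2), -0.015 to 0.14 for XBP1 and -0.13 to 0.11 for SDF2L1 (CoCl2 against OD, Caco-2), and -0.14 to 0.087 for DNAJB9 (controls), none of which passed in edgeR as reported. DESeq2 called 6 members for the CoCl2 line difference and in the other comparisons as many as edgeR. Same-numbered libraries correlated from -0.11 to 0.12 in their deviations from the group means. These values show no clear shared effect of replicate number, but they cannot tell whether the samples were paired by design. A replicate block left the calls at 2, 2, 6, 6, 0, 2, 4, 3 and 3, and took DNAJB9 in the OD line difference to FDR 0.0523 in edgeR. The line differences and the controls were not run in limma, which was fitted within lines. Depth limits SDF2L1 most, with 53 to 248 counts per library.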

Other observations

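Beyond the 10 genes, 38 other genes held an ER stress element of either kind in a RefSeq promoter window, a choice made by sequence alone. Of the 24 tested in Caco-2, 11 rose and 5 fell with CoCl2 and 9 rose and 5 fell with OD, with medians of 0.18 and 0.15 on the log2 scale beside -0.03 and -0.02 over all genes. Of the 25 tested in HT-29, 16 rose and 4 fell with CoCl2 and 18 rose and 4 fell with OD, with medians of 0.61 and 0.59 beside -0.03 and 0.01. Called genes in Caco-2 were 2 higher and 1 lower after CoCl2 (23.4% of all genes called, 9.13% as higher) and 0 after OD in edgeR (11.7%), where 9 and 5 had passed at any fold, and in HT-29 they were 9 higher and 1 lower after CoCl2 (41.3%, 17.4% as higher) and 8 higher after OD (17.1%, 9.50% as higher). FICD, which modifies BiP by adding AMP, was among them with log2 values of 0.18 and 0.13 for the agents in Caco-2, then 2.53 and 2.20 in HT-29, where it had 54 to 144 counts in controls and 327 to 427 in treated libraries. ERO1B, the paralog of ERO1A, had values of 0.48 and 0.36, then 2.57 and 2.76, which in HT-29 rest on only 7 to 12 counts per control library and 31 to 66 per treated library. Both were named after their values were seen. Some of the 38, such as CRELD2, HYOU1, CANX, PDIA6 and ERO1B, are also in the list of folding helpers.

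Across the 18 libraries, with each line's mean removed from log2 CPM, the genes most like HSPA5 among 9250 others included CD59 (Pearson r 0.986), TNFAIP3 (0.985), SPECC1 (0.984) and PIM1 (0.983). Those most like ERO1A included PGK1 (0.994), POFUT2 (0.993), SLC20A1 (0.993) and P4HA1 (0.993). Among the 10 genes the highest values were 0.971 for HERPUD1 with CALR, 0.961 for DNAJB9 with ERO1A and 0.957 for HSPA5 with HSP90B1, and XBP1 had its lowest, -0.72, with SDF2L1. The libraries share the 3 conditions, their scaling and their controls, so these values describe likeness of pattern and carry no p.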
